A study of Mus musculus with 16 samples.

Results

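Celiac ganglia of mice that carried the MYCN transgene and were labelled heterozygous for Runx1t1 were compared with neuroblastoma tumors of the same transgenic line, gene by gene. The comparison used 6 of the 16 RNA-seq libraries of the series, all that carried these 2 labels: 2 libraries of celiac ganglia and 4 of tumors. The ganglia came from 2-week-old mice homozygous for Th-MYCN and heterozygous for an insertional knockout of Runx1t1 (Th-MYCN +/+; Runx1t1 +/-). The tumors were neuroblastomas of mice homozygous for Th-MYCN with wild-type Runx1t1 (Th-MYCN +/+; Runx1t1 +/+), and their age is not given in the sources used here. Both groups therefore carried the human MYCN transgene, which the rat Th promoter drives in cells of the neural crest lineage, on a 129/SvJ background crossed with the knockout line. The other libraries were used as background: 3 of 2-week celiac ganglia with the transgene and wild-type Runx1t1, and 7 of 2-week celiac ganglia without the transgene (3 labelled Runx1t1 het and 4 wild type). The sources do not say whether the libraries of a group came from separate mice or pooled ones, so p-values measure the spread between these libraries, which may be partly technical. Tissue and Runx1t1 label differed together between the ganglia and the tumors, as age may have, and cannot be told apart.

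Sympathetic ganglia such as the celiac ganglion hold postganglionic noradrenergic neurons, which make noradrenaline from tyrosine, receive cholinergic input through nicotinic receptors, depend on nerve growth factor, and are wrapped by satellite glia. Neuroblastoma arises from the sympathoadrenal neural crest lineage that forms these neurons, and MYCN drives growth genes by pairing with Max at E-box sequences. Runx1t1 (also ETO) is a co-repressor that binds no DNA itself and works through partner transcription factors and histone deacetylase complexes.

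The 2 ganglion libraries held 14221947 and 12367970 counts assigned to genes, and the 4 tumor libraries 27096031 to 38618760. Y-linked RNA was judged by the gene Ddx3y at a level above 1 CPM (counts scaled to library size). It was found in neither ganglion library, while 3 of the 4 tumors had it. Of the 24411 genes in the tables, 16665 had enough counts to be tested. Between the 2 ganglia the median gene differed by 0.214 on the log2 scale, and between pairs of tumors by 0.222 to 0.338, so that no library repeated another. The 12 ganglion libraries of the series fell into 2 sets by depth: the 6 numbered 1 or 2, both het ganglia among them, held 10692291 to 14221947 counts, and the 6 numbered 3 or 4 held 24873942 to 36337179. Of the genes tested, 46 were lower and 136 higher in every library of the shallow set than in every one of the deeper set, and 12 and 27 of these were among the genes called lower and higher than tumors. What set these libraries apart is not given in the sources used here. Transgene-free wild-type ganglion replicate 2 also stood apart, with a lymphocyte marker sum of 1500 TPM (at most 16.6 TPM in the other 6 transgene-free ganglia), a macrophage marker sum of 2210 TPM (at most 246) and a median gene 0.461 to 0.565 on the log2 scale from the others of its group. Levels of a gene between libraries are given in CPM scaled by edgeR's trimmed mean of M-values, and levels summed over genes in TPM, which are scaled to transcript length and library size.

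The ganglia and tumors differed at 7582 of the 16665 genes, 45.5% of those tested, at an adjusted p under 0.05 (edgeR quasi-likelihood test, Benjamini-Hochberg adjustment over all genes tested). The called genes were 3914 higher in the ganglia (23.5% of those tested) and 3668 lower (22.0%), and the median log2 fold change over all genes tested was -0.07. Without ganglion replicate 1, 4313 genes passed, 2702 higher and 1611 lower. With a term for the library set (the shallow ganglia or all other libraries), chosen after seeing the data, 7300 passed, 3554 higher and 3746 lower, of which 6564 were among the 7582. Without transgene-free wild-type ganglion replicate 2, which enters this comparison only through the shared filter, scaling and spread, 8275 of 16533 passed, 7565 of them among the 7582. Thinning every library to the smallest gave 7489 genes (7198 among the 7582) and a term for sex 6480 (6272 among them). Libraries without Y-linked RNA, with 1 tumor, gave 5084 (4744 among them). In that fit, here and below, libraries with Y-linked RNA were removed only from the groups compared, and those of the other groups stayed. Where 1 ganglion is left out, here and in all counts given without a ganglion replicate, the lone het ganglion is assumed to vary like the libraries of the other groups, so a lost call does not by itself show a smaller difference. Of the 7582 genes called, the median size of the difference was 1.58 on the log2 scale. A difference of at least 8-fold was fitted for 1111 genes higher in the ganglia and 504 lower. The ranges of the 2 groups did not overlap for 63.0% of all genes tested and for 7507 of the 7582 called. Genes called higher in the ganglia held 40.3% and 35% of all TPM in the ganglia and 7.56% to 9.58% in the tumors. Genes called lower held 26% and 31.6% of TPM in the ganglia and 62% to 66.1% in the tumors. The counts of list members given here are read against these shares.

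**Figure D1:**
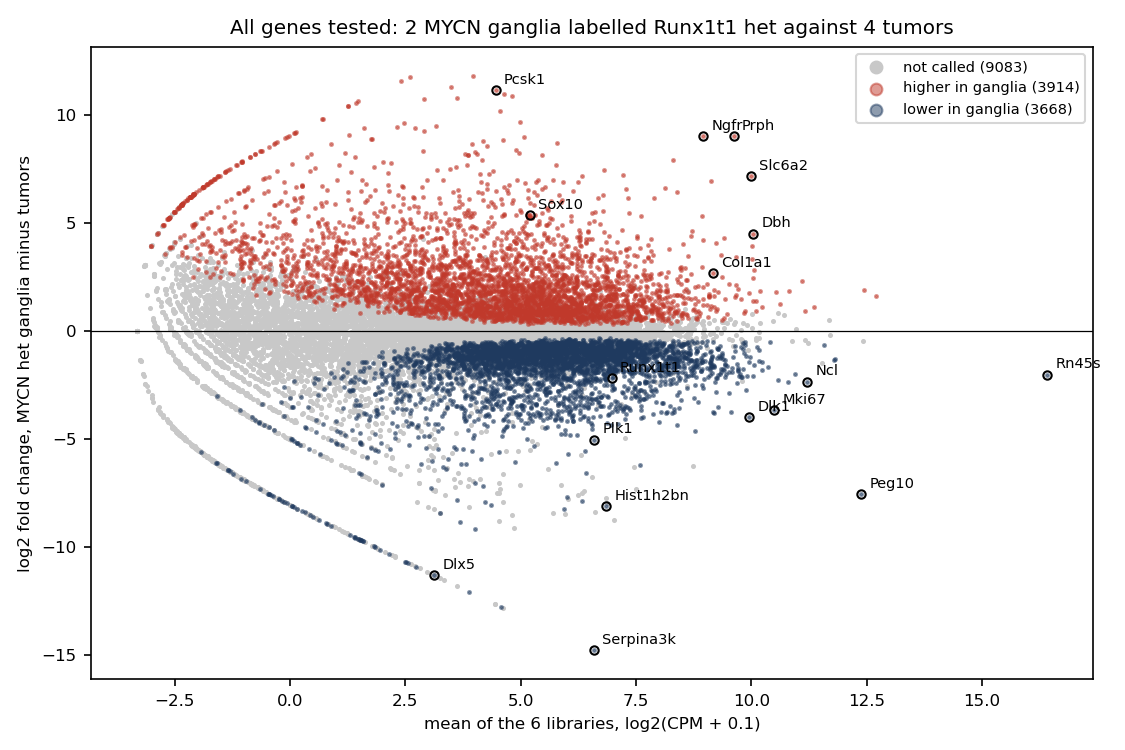
Log2 fold change (MYCN ganglia labelled Runx1t1 het minus tumors, vertical axis) against the mean level of the 6 libraries (log2 of CPM plus 0.1, horizontal axis) for each of the 16665 genes tested. Red points are the 3914 genes higher in the ganglia, blue points the 3668 lower and grey points those not called; circles mark named genes, and the curved rows at the left edges are genes with few counts or none in one group.

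Runx1t1 (chr4:13743436-13893649 in GRCm38, GENCODE vM21), the gene inactivated in 1 copy, was read at 25.3 and 49.9 CPM in the 2 ganglia and 227, 123, 131 and 198 CPM in the 4 tumors. Both ganglia lay below all 4 tumors, with a log2 fold change of -2.18 (SE 0.66, adjusted p = 0.0149, edgeR). Ganglia without the transgene were lower still, at 8.47 to 18.2 (median 13.1) CPM, whatever their Runx1t1 label. MYCN ganglia with wild-type Runx1t1 read 243, 23.4 and 111 CPM, a range that holds both het values, so Runx1t1 RNA did not check the het label. Without ganglion replicate 1 the difference from tumors no longer passed (log2 fold change -1.77).

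The mouse Mycn gene (chr12:12936093-12941914) read 33.8 and 50.1 CPM in the ganglia and 49.7, 12.4, 15.7 and 12.7 CPM in the tumors. Tumor 1 stood within the ganglion range and the other 3 tumors below it, and the difference did not pass (log2 fold change 0.89, SE 0.48, adjusted p = 0.144, edgeR). Without tumor 1 it did, the log2 fold change of Mycn being 1.62 (adjusted p = 7.69e-04, edgeR). The human transgene has no row in the tables, so its level is not given here.

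Genes of noradrenaline synthesis and transport were higher in the ganglia almost throughout: 11 of 12 tested members were higher in the ganglia, 0 lower and 1 did not pass, with a median log2 fold change of 2.51 beside -0.07 over all genes. Summed over the 12 genes, the ganglia held 11800 and 8730 TPM and the tumors 1110, 1100, 947 and 1050 TPM. The ganglia without the transgene held 3870 to 11400 (median 8840) TPM, and 6980 to 11400 TPM without wild-type replicate 2, which stood apart. In bulk RNA, fewer cells of a type and less RNA per cell cannot be told apart.

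Th, tyrosine hydroxylase and the first enzyme of the path, read 1240 and 1130 CPM in the ganglia and 152, 495, 218 and 485 CPM in the tumors, with a log2 fold change of 1.82 (SE 0.46, adjusted p = 0.00558, edgeR). Dbh, which turns dopamine into noradrenaline, read 3510 and 2310 CPM in the ganglia and 290, 86.3, 86.1 and 52.5 CPM in the tumors, with a log2 fold change of 4.5 (SE 0.58, adjusted p = 5.32e-05, edgeR). Slc6a2, the noradrenaline transporter that takes the transmitter back up, read 3710 and 2280 CPM against 63.2, 7.48, 9.81 and 3.79 CPM, with a log2 fold change of 7.15 (SE 0.95, adjusted p = 6.43e-05, edgeR). Of these 3 genes Th differed least and Slc6a2 most, and tumor 1 was the highest of the tumors for Dbh and Slc6a2 but the lowest for Th. Ddc, the decarboxylase between Th and Dbh, and Slc18a2, the vesicular monoamine transporter, gave log2 fold changes of 1.29 and 3.71.

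Genes of neurotransmitter release followed: 17 of 18 tested members were higher in the ganglia, 0 lower and 1 did not pass (median 1.77). Syt1, the calcium sensor of vesicle fusion, read 1940 and 1280 CPM in the ganglia and 63.6, 87.7, 89.4 and 143 CPM in the tumors (log2 fold change 4.07, SE 0.43, adjusted p = 1.01e-05, edgeR). Snap25, a SNARE protein of the fusion machinery, gave a log2 fold change of 1.64 (SE 0.28, adjusted p = 3.76e-04, edgeR). Syt10, another synaptotagmin, read 7.74 and 6.02 CPM in the ganglia and had no count in any tumor, at least 70.1-fold higher in the ganglia when each tumor is set at a floor of 3 counts. In the transgene-free ganglia Syt10 was at 1.74 to 5.05 (median 3.64) CPM, below both het ganglia.

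Of the neuronal cytoskeleton list, 10 of 14 tested members were higher in the ganglia, 0 lower and 4 did not pass (median 1.48). Prph, peripherin, the intermediate filament of peripheral neurons (chr15:99055174-99058978), read 2300 and 2380 CPM in the ganglia and 9.78, 5.2, 2.28 and 0.842 CPM in the tumors, with a log2 fold change of 9.02 (SE 0.76, adjusted p = 1.93e-06, edgeR). The heavy neurofilament gene Nefh was higher in the ganglia by a log2 fold change of 0.97 (SE 0.30, adjusted p = 0.0187, edgeR). Nefm, the medium neurofilament gene, did not pass: it read 1250 and 1460 CPM in the ganglia and 8260, 1670, 2860 and 2180 CPM in the tumors, tumor 1 being far above the rest (log2 fold change -1.46, SE 0.64, adjusted p = 0.0782, edgeR). Prph separated the groups far more widely than either neurofilament gene. When ganglion replicate 1 was left out, 6 of the list were still higher, and Nefh lost its call when either ganglion was left out or a term for the library set was added.

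Receptors for survival factors included some of the widest gaps among abundant genes. Ngfr, the p75 neurotrophin receptor, read 1740 and 1220 CPM in the ganglia and 1.94, 4.86, 3 and 1.57 CPM in the tumors, with a log2 fold change of 9.02 (SE 0.62, adjusted p = 4.69e-07, edgeR). Every one of the 12 ganglion libraries lay above every tumor for Ngfr, the lowest at 383 CPM. Ret, the GDNF family receptor kinase, was higher by a log2 fold change of 3.0 (SE 0.64, adjusted p = 0.00195, edgeR). In the whole list 5 of 10 tested members were higher in the ganglia, 0 lower and 5 did not pass (median 1.5).

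Of the neuropeptides, granins and their processing enzymes, 10 of 17 tested members were higher in the ganglia, 0 lower and 7 did not pass (median 2.17). Npy, neuropeptide Y, the co-transmitter of many sympathetic neurons, read 816 and 570 CPM in the ganglia and 21, 6.58, 9.03 and 2.72 CPM in the tumors, with a log2 fold change of 6.14 (SE 0.61, adjusted p = 6.42e-06, edgeR). MYCN ganglia with wild-type Runx1t1 lay between, at 170, 230 and 158 CPM, and their difference from the het ganglia did not pass (adjusted p = 0.3, edgeR). Pcsk1, a convertase that cuts prohormones, read 78 and 53.2 CPM in the ganglia and was at or under the floor in every tumor, at least 668-fold higher. Sst, somatostatin, read 7.74 and 12.1 CPM and was at the floor in all 4 tumors, at least 101-fold higher, and Gal, galanin, was higher by a log2 fold change of 5.47 (SE 0.83, adjusted p = 1.73e-04, edgeR).

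Channels and receptors on the neuronal surface were higher in the ganglia in most cases. For the nicotinic receptor subunits, 4 of 6 tested members were higher in the ganglia, 0 lower and 2 did not pass, among them Chrna3 and Chrnb4, the subunits of the main ganglionic receptor, with a log2 fold change of 3.81 (SE 0.51, adjusted p = 6.37e-05, edgeR) and a log2 fold change of 6.88 (SE 0.68, adjusted p = 5.84e-06, edgeR). For sodium and calcium channels, 10 of 14 tested members were higher in the ganglia, 2 lower and 2 did not pass. Scn9a, the sodium channel Nav1.7, gave a log2 fold change of 2.07 (SE 0.32, adjusted p = 2.22e-04, edgeR). Scn11a, another sodium channel, read 19.9 and 9.65 CPM and was at the floor in every tumor, at least 150-fold higher. For potassium and HCN channels, 11 of 17 tested members were higher in the ganglia, 2 lower and 4 did not pass, and Kcnq3, a subunit of the M current, gave a log2 fold change of 6.03 (SE 0.55, adjusted p = 3.43e-06, edgeR). Sodium and calcium channel genes called lower numbered 1 without ganglion replicate 1. The 2 potassium and HCN channel genes that were lower no longer passed without ganglion replicate 1 or tumor 4, and the lower calls numbered 1 without any of the other 4 libraries in turn or with a term for the library set.

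Among genes whose mean over the 6 libraries was 5 TPM or more, the 10 with the largest fitted excess in the ganglia and no overlap between groups were at or near 0 in the tumors. They were Vwc2l, Kctd16, Hcrtr1, Pcsk1, Htr3b, Cckar, Lingo2, Rxfp1, Cntn5 and Cntn3. Htr3b, a subunit of the serotonin-gated 5-HT3 channel, read 86 and 63.8 CPM in the ganglia and was at or under the floor of 3 counts in every tumor, at least 763-fold higher. Cckar, a receptor for cholecystokinin, read 92.2 and 74.6 CPM in the het ganglia (at least 850-fold higher) and 12.8, 12 and 4.13 CPM in the MYCN ganglia with wild-type Runx1t1. Its difference between het and wild-type MYCN ganglia did not pass (adjusted p = 0.0945, edgeR). Transgene-free ganglia read 26.7 to 66.3 CPM for Cckar. Hcrtr1, an orexin receptor, and Rxfp1, the relaxin receptor, were at least 338-fold and 225-fold higher. Kctd16, an auxiliary subunit of GABA-B receptors, had no count in any tumor and read 14.7 and 16.6 CPM in the ganglia. Lingo2, Cntn3 and Cntn5 encode neuronal surface proteins of the leucine-rich repeat and contactin families, and Cntn3 read 116 and 73.9 CPM against 0.0388, 0.141, 0.178 and 0.0842 CPM. For each of these 10 genes the transgene-free ganglia were also far above the tumors.

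Transcription factors of the lineage were called at shares near those over all genes tested. Of the sympathoadrenal factors, 2 of 14 tested members were higher in the ganglia, 4 lower and 8 did not pass (median -0.75). Their sum, which abundant members carry, was 2890 and 3100 TPM in the ganglia and 2620, 1700, 1630 and 1580 TPM in the tumors, higher in the ganglia although the median was below 0, and in CPM the log2 ratio of the sums turned from 0.67 to -0.15. Hand2, a bHLH factor of sympathetic neurons, read 794 and 849 CPM in the ganglia and 858, 539, 560 and 490 CPM in the tumors. It did not pass the test, with a log2 fold change of 0.43 (SE 0.31, adjusted p = 0.274, edgeR). Hand1, the close relative of Hand2, was higher in the ganglia at 332 and 307 CPM against 19.1, 2.17, 6.21 and 0.14 CPM (log2 fold change 5.54, SE 0.97, adjusted p = 4.76e-04, edgeR). The 2 Hand genes thus differed in their separation of ganglia from tumors.

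Gata3, a zinc finger factor of sympathetic neurons, was lower in the ganglia at 85.8 and 83.8 CPM against 186, 139, 115 and 105 CPM (log2 fold change -0.68, SE 0.23, adjusted p = 0.0241, edgeR). Meis2, a homeobox factor, read 2.39 and 3.01 CPM in the ganglia and 396, 28.7, 61.9 and 14.7 CPM in the tumors (log2 fold change -5.53, SE 1.68, adjusted p = 0.0156, edgeR). The tumors spread widely for Meis2, tumor 1 being the highest, and both ganglia lay below them all for both genes. Each of these 2 calls was lost when either ganglion was left out, and that of Gata3 also with a term for the library set (adjusted p = 0.0735, edgeR). Leaving out ganglion replicate 1, 1 factor was higher and 0 lower, and without replicate 2, 1 higher and 1 lower. The median of the factors was -0.47 without tumor 1, and -0.38 with 0 lower among libraries without Y-linked RNA.

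Of the genes of immature neuroblasts, 3 of 15 tested members were higher in the ganglia, 6 lower and 6 did not pass (median -1.45). Sox11, an HMG factor of immature neurons, read 31 and 88.3 CPM in the ganglia and 471, 459, 414 and 539 CPM in the tumors (log2 fold change -2.98, SE 0.73, adjusted p = 0.00446, edgeR). The Dlx homeobox genes split. Dlx5 (chr6:6877805-6882085) had no count in either ganglion and read 0.582, 19.5, 8.92 and 22.5 CPM in the tumors, at least 58.2-fold lower in the ganglia at the floor, while Dlx2 read 3.8 and 2.62 CPM in the ganglia and was at the floor in every tumor, at least 32.7-fold higher. Transgene-free ganglia had Dlx2 at 2.15 to 3.42 (median 2.8) CPM and Dlx5 at 0 to 0.24 CPM. The neuroblast genes called lower numbered 1 without ganglion replicate 1, and Sox11 and Dlx5 were not among those called. The median of the list was -2.33 without ganglion replicate 2.

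**Figure D2:**
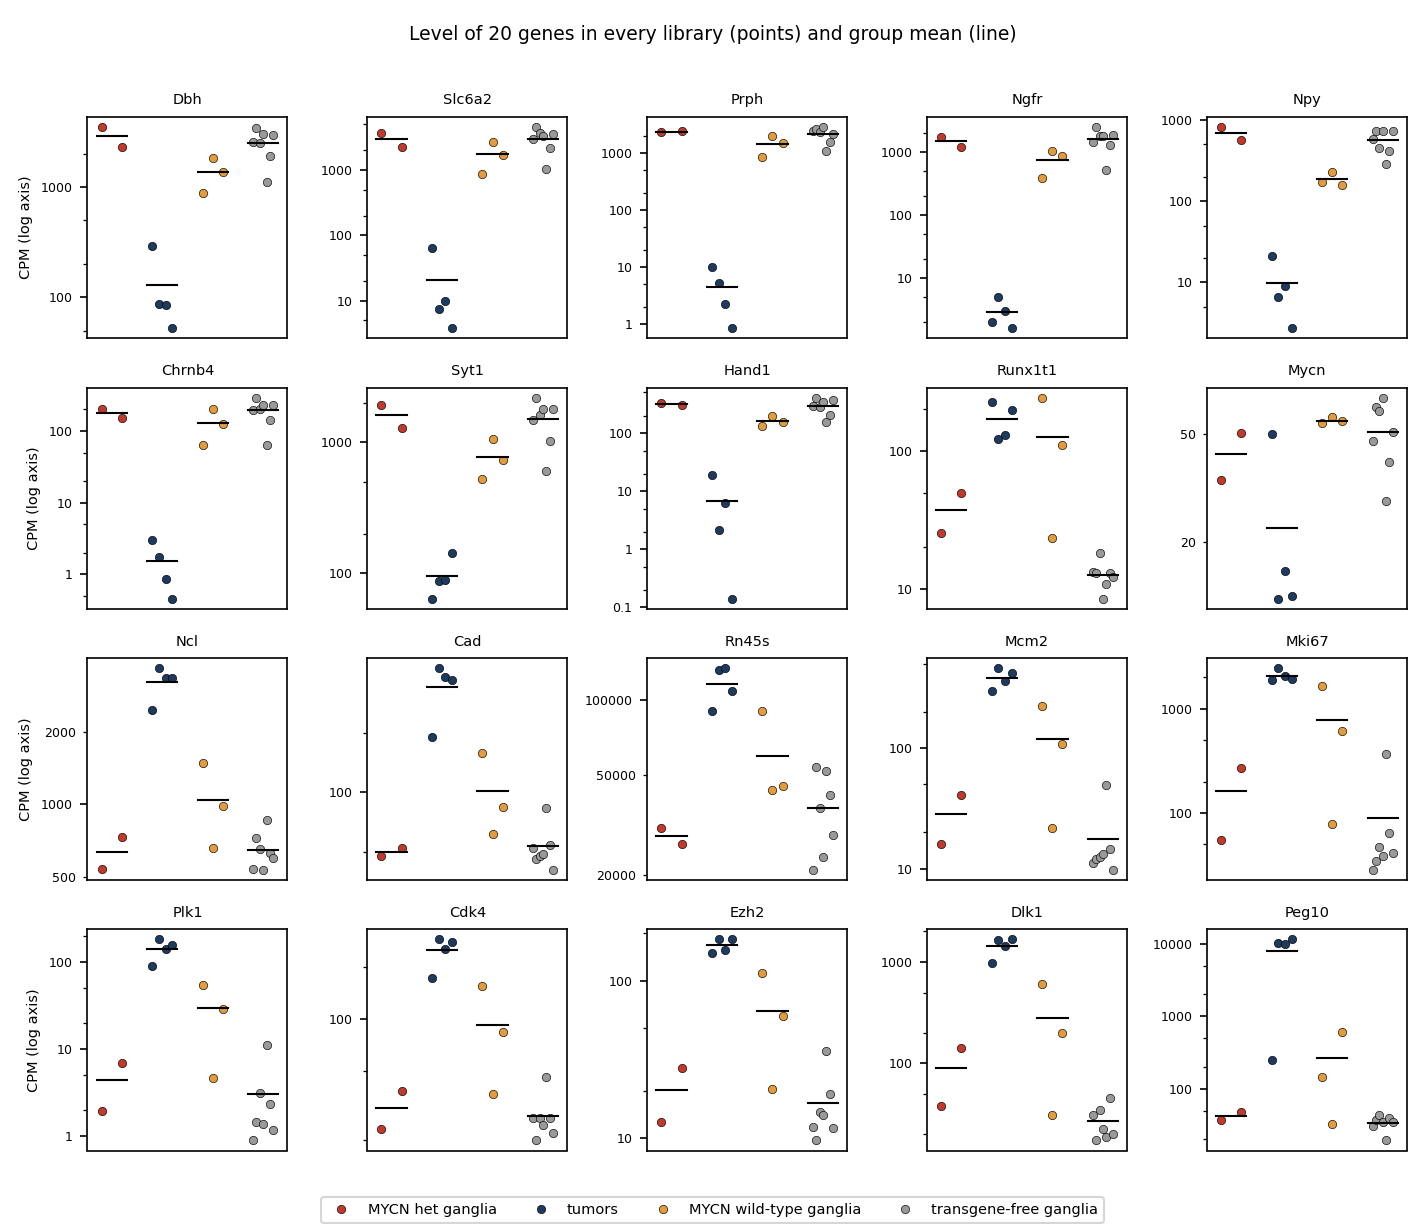
CPM on a log axis of 20 named genes in every library: MYCN ganglia labelled het (red), tumors (dark blue), MYCN ganglia with wild-type Runx1t1 (orange) and transgene-free ganglia (grey), with group means as lines. For Dbh to Hand1 both red points lie far above the tumors, for Ncl to Peg10 both lie below all 4 tumors, and Mycn shows tumor 1 at the level of the ganglia.

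Growth genes lay on the other side. Of 30 genes known as targets of MYC proteins, 0 of 30 tested members were higher in the ganglia, 28 lower and 2 did not pass, with a median log2 fold change of -2.02; the 2 that did not pass were Ldha and Paics. Their summed level was 3780 and 4090 TPM in the ganglia, 6860, 10100, 9900 and 10200 TPM in the tumors and 3340 to 4110 (median 3650) TPM in ganglia without the transgene. Without transgene-free wild-type replicate 2, which had the highest of those sums, the others lay at 3340 to 3980 TPM, a range that holds het ganglion 1 while het ganglion 2 lay just above it. Tumor 1 was the lowest of the tumors and still above every ganglion in this sum.

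Ncl, nucleolin, a nucleolar RNA-binding protein, read 539 and 730 CPM in the ganglia and 2490, 3700, 3380 and 3370 CPM in the tumors (log2 fold change -2.35, SE 0.34, adjusted p = 1.21e-04, edgeR). Npm1, nucleophosmin, gave a log2 fold change of -2.74 (SE 0.44, adjusted p = 2.84e-04, edgeR). Cad, the enzyme that opens pyrimidine synthesis, read 47.7 and 52.5 CPM against 191, 424, 383 and 369 CPM (log2 fold change -2.77, SE 0.43, adjusted p = 2.05e-04, edgeR), and Odc1, which opens polyamine synthesis, gave a log2 fold change of -2.0 (SE 0.45, adjusted p = 0.00254, edgeR). Both ganglia were below each tumor for all 4 genes. Odc1 no longer passed without ganglion replicate 1 (log2 fold change -1.73), and 25 of the 30 targets did.

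In the network of MYC partners and antagonists, 2 of 12 tested members were higher in the ganglia, 6 lower and 4 did not pass (median -0.67). Max, the partner of all MYC proteins, read 35.6 and 42.4 CPM in the ganglia and 69.5, 69.4, 65.8 and 64.5 CPM in the tumors (log2 fold change -0.79, SE 0.15, adjusted p = 7.98e-04, edgeR). Myc itself was higher in the ganglia, at 13 and 13.8 CPM against 4.78, 4.74, 2.46 and 2.25 CPM (log2 fold change 1.91, SE 0.45, adjusted p = 0.00332, edgeR). Mxd3, a Max-binding repressor found in dividing cells, was lower, at 0.915 and 3.4 CPM against 30.4, 44.5, 32.2 and 38.2 CPM (log2 fold change -4.08, SE 0.89, adjusted p = 0.00209, edgeR). Max and Myc thus differed in opposite directions between the same libraries. In the network, 1 gene was higher and 3 were lower without ganglion replicate 1, and 1 was higher without ganglion replicate 2 or tumor 2, 3 or 4, or with the term for the library set.

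In each list of the protein synthesis machinery, most tested members were called lower in the ganglia. Of the cytoplasmic ribosomal protein genes, 1 of 81 tested members were higher in the ganglia, 74 lower and 6 did not pass (median -1.71), and they summed to 56300 and 62400 TPM in the ganglia against 136000, 126000, 124000 and 142000 TPM in the tumors. The 1 higher member was Rpl3l, a muscle copy with under 1 CPM in every library of the 2 groups, which no longer passed without ganglion replicate 2 or any of the tumors. Ribosomal protein genes have many processed pseudogenes, so reads may be split between copies. Rps19 gave a log2 fold change of -2.32 (SE 0.47, adjusted p = 0.00137, edgeR) and Rplp2, of the ribosomal stalk, a log2 fold change of -2.03 (SE 0.36, adjusted p = 5.01e-04, edgeR).

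Of the nucleolar genes that build ribosomes, 0 of 31 tested members were higher in the ganglia, 29 lower and 2 did not pass (median -1.61). Nop2, an rRNA methyltransferase, read 24.1 and 25 CPM against 63.3, 107, 94.8 and 108 CPM (log2 fold change -1.92, SE 0.26, adjusted p = 6.28e-05, edgeR), and Dkc1, dyskerin, gave a log2 fold change of -2.52 (SE 0.45, adjusted p = 5.61e-04, edgeR). Rn45s, the 45S precursor of ribosomal RNA, read 30700 and 26600 CPM in the ganglia and 90200, 132000, 134000 and 109000 CPM in the tumors (log2 fold change -2.02, SE 0.54, adjusted p = 0.00791, edgeR). It took 3.06% and 2.79% of all counts in the ganglia and 8.57% to 12.8% in the tumors. Mature ribosomal RNA shares its sequence with parts of the precursor, so these values do not tell precursor from mature RNA. For translation initiation factors, 4 of 54 tested members were higher in the ganglia, 36 lower and 14 did not pass, and for cytosolic aminoacyl-tRNA synthetases, 0 of 20 tested members were higher in the ganglia, 15 lower and 5 did not pass. Eef1a1, the elongation factor and one of the most abundant called genes, was lower (log2 fold change -1.29, SE 0.28, adjusted p = 0.00223, edgeR). Initiation factors without ganglion replicate 1 gave 2 higher and 21 lower and synthetases 9 lower. Rn45s lost its call when either ganglion was left out (log2 fold changes -2.13 and -1.92).

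Cell division genes had the lowest medians among the 34 lists of biological functions. Of the mitosis genes, 0 of 28 tested members were higher in the ganglia, 28 lower and 0 did not pass (median -3.83), and of the genes of replication licensing and S phase, 0 of 28 tested members were higher in the ganglia, 27 lower and 1 did not pass (median -3.35). The mitosis genes summed to 150 and 540 TPM in the ganglia and 3380, 3800, 3300 and 3430 TPM in the tumors. The S phase genes summed to 270 and 536 TPM and 2330, 3250, 2750 and 3030 TPM. The ganglia were far below each tumor in both sums, but not alike: replicate 2 held 3.61 times the mitosis sum of replicate 1 and 1.99 times its S phase sum.

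Mki67, the proliferation marker Ki-67 (chr7:135689784-135716361), read 54.4 and 272 CPM in the ganglia and 1890, 2440, 2060 and 1930 CPM in the tumors (log2 fold change -3.67, SE 1.23, adjusted p = 0.0253, edgeR). Plk1, a kinase of mitotic entry, read 1.9 and 6.87 CPM against 90.9, 184, 141 and 156 CPM (log2 fold change -5.03, SE 1.21, adjusted p = 0.00402, edgeR). Cdk1, the kinase that drives mitosis, and its partner Ccnb1 gave -4.15 and -4.24. In replication, Mcm2, a subunit of the helicase loaded at origins, read 16.1 and 40.5 CPM against 296, 458, 357 and 420 CPM (log2 fold change -3.76, SE 0.88, adjusted p = 0.0035, edgeR). Pcna, the sliding clamp, gave a log2 fold change of -2.98 (SE 0.54, adjusted p = 5.96e-04, edgeR) and Cdc6, which loads the helicase, a log2 fold change of -4.43 (SE 1.43, adjusted p = 0.0209, edgeR). Without ganglion replicate 1, which leaves replicate 2 as the only het ganglion, 4 of the 28 mitosis genes and 7 of the 28 S phase genes still passed, with medians of -3.17 and -2.90. Without replicate 2 the counts were 28 and 22. Of the genes named, Pcna alone kept its call without replicate 1.

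The replication-dependent histone genes, whose mRNA is made in S phase, gave the same order: 0 of 62 tested members were higher in the ganglia, 45 lower and 17 did not pass (median -3.24), with sums of 7400 and 20600 TPM in the ganglia and 83400, 90400, 65100 and 68200 TPM in the tumors. Hist1h2bn read 0.774 and 0.463 CPM against 294, 160, 118 and 120 CPM (log2 fold change -8.11, SE 2.72, adjusted p = 0.0254, edgeR). These genes are near-identical copies of each other, so single members are uncertain, and without ganglion replicate 1 only 5 of the 62 passed. Of the G1 cyclins, kinases and inhibitors, 2 of 19 tested members were higher in the ganglia, 7 lower and 10 did not pass. Without tumor 1, 4 of them were higher and 6 lower. Cdk4, the G1 kinase, was lower at 23.2 and 38.2 CPM against 174, 292, 256 and 282 CPM (log2 fold change -3.03, SE 0.52, adjusted p = 4.43e-04, edgeR), and its relative Cdk6 was higher (log2 fold change 2.66, SE 0.33, adjusted p = 3.68e-05, edgeR). Cdkn1a, the inhibitor p21, was higher by a log2 fold change of 1.47 (SE 0.35, adjusted p = 0.00368, edgeR). The G1 genes that were lower numbered 3 without ganglion replicate 1, and Hist1h2bn lost its call when either ganglion was left out.

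Promoter sequences were read for the growth and division lists, since MYC proteins bind the E-box CACGTG, E2F factors bind TTTGGCGC or TTTCGCGC near the start of replication genes, and the CHR element TTTGAA lies in promoters of mitotic genes. RefSeq promoters on GRCm38.p6 (250 bases before to 50 after each start) were matched by symbol for 12404 of the 16665 genes tested, and each motif was sought on both strands. CACGTG was in a promoter of 10.9% of all these genes, 13% of those called lower in the ganglia, 9.89% of those called higher and 8 of the 26 MYC targets with a promoter (30.8%). The other growth and division lists had CACGTG in 6 of 29 nucleolar genes (20.7%), 6 of 60 cytoplasmic ribosomal protein genes (10%), 2 of 23 mitosis genes (8.7%) and 1 of 23 S phase genes (4.35%). With 100 bases before the start in place of 250, 5 of the 26 MYC targets held it (19.2%), beside 6.87% of all genes. The E2F letters were in 1.58% of all genes, 2.96% of those lower, 0.784% of those higher and 10 of 23 S phase genes (43.5%). TTTGAA was in 14.6% of all genes, 16.1% of those lower, 12.7% of those higher and 17 of 23 mitosis genes (73.9%). With 100 bases before the start, the E2F letters were in 0.847% of all genes, 1.68% of those lower, 0.375% of those higher and 7 of 23 S phase genes (30.4%), and TTTGAA in 5.91%, 7.32%, 4.81% and 17 of 23 mitosis genes (73.9%). With 250 bases before the start, CCAAT, also sought, was in 42.1% of all genes, 43.4% of those lower and 41.5% of those higher. It was in 18 of 23 mitosis genes (78.3%) and 16 of 23 S phase genes (69.6%). The shares were 30.8% of MYC targets, 34.5% of nucleolar genes and 30% of cytoplasmic ribosomal protein genes. The E2F, CHR and CCAAT letters were added after the gene results were seen, and a match is a description of letters, not a bound site.

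These stretches of 120 bases lie upstream of the start, from the first called members of each list with the motif there, and let the letters be seen in place; capitals mark the motif on either strand, and all 7 genes were lower in the ganglia.
Nme1 (chr11:93968273-93968392, minus strand): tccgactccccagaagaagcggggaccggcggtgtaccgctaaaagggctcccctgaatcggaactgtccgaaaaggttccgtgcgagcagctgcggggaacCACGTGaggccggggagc
Hspd1 (chr1:55088264-55088383, minus strand): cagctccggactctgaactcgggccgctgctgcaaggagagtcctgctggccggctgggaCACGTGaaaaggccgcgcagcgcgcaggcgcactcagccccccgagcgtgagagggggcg
Ran (chr5:129019978-129020097, plus strand): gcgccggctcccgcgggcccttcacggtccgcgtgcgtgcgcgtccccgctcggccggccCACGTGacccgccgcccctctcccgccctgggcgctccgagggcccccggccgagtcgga
Mcm5 (chr8:75109300-75109419, plus strand): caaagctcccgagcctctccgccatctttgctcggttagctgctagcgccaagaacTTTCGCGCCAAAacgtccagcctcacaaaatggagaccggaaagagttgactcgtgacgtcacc
Mcm6 (chr1:128359706-128359825, minus strand): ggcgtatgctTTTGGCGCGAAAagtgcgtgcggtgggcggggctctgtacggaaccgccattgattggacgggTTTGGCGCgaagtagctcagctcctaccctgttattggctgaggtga
Mki67 (chr7:135716418-135716537, minus strand): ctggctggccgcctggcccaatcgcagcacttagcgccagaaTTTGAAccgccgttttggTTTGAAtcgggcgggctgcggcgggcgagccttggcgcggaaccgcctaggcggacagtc
Top2a (chr11:99024190-99024309, minus strand): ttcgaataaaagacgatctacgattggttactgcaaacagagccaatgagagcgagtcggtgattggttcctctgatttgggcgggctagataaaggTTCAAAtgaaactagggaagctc
The first 3 are MYC targets with CACGTG, the next 2 are subunits of the replicative helicase with overlapping E2F letters, and the last 2 are mitosis genes with TTTGAA. The motif nearest the start began 18 bases before it in Nme1, 80 in Hspd1, 118 in Ran, 149 in Mcm5, 47 in Mcm6, 98 in Mki67 and 23 in Top2a.

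**Figure D3:**
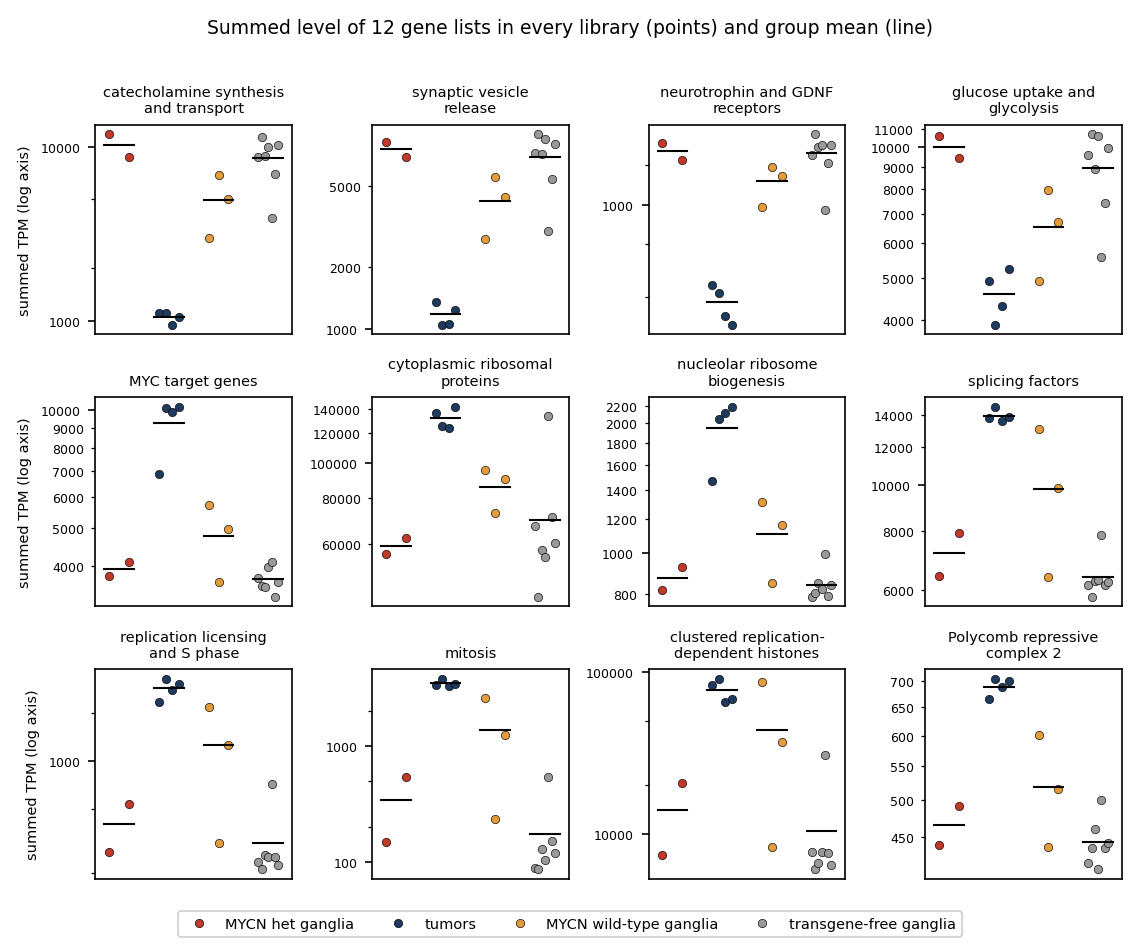
Summed TPM on a log axis of 12 gene lists in every library, with group means as lines. In the 4 upper panels both red points (MYCN ganglia labelled het) lie above every tumor, and in the other 8 below every tumor; in the panels of mitosis and histones the 2 red points are themselves far apart.

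Chromatin regulators were lower in the ganglia more often than higher. Of the ETO co-repressors and the LSD1-CoREST-HDAC complex, 0 of 14 tested members were higher in the ganglia, 8 lower and 6 did not pass (median -0.64). Rcor2, a CoREST subunit, read 9.08 and 17.4 CPM in the ganglia and 85.1, 147, 157 and 149 CPM in the tumors (log2 fold change -3.34, SE 0.69, adjusted p = 0.00154, edgeR), and Hdac2, a deacetylase, gave a log2 fold change of -1.05 (SE 0.27, adjusted p = 0.00599, edgeR). Kdm1a, the demethylase LSD1, read 99.4 and 115 CPM against 154, 168, 166 and 195 CPM and did not pass (log2 fold change -0.67, SE 0.30, adjusted p = 0.082, edgeR), although its groups did not overlap. With a term for the library set Kdm1a passed (log2 fold change -1.27, adjusted p = 0.00183, edgeR). Of Polycomb repressive complex 2, 2 of 11 tested members were higher in the ganglia, 8 lower and 1 did not pass: Ezh2, its methyltransferase, was lower at 12.7 and 27.9 CPM against 150, 184, 157 and 184 CPM (log2 fold change -3.05, SE 0.63, adjusted p = 0.00155, edgeR), and Phf1, an accessory subunit, was higher (log2 fold change 2.59, SE 0.23, adjusted p = 3.14e-06, edgeR). For splicing factors, 1 of 54 tested members were higher in the ganglia, 48 lower and 5 did not pass (median -1.61); the 1 higher member was Snrpn, an imprinted gene expressed in neurons (log2 fold change 1.69, SE 0.28, adjusted p = 2.92e-04, edgeR), and Snrpf, of the core snRNP ring, gave a log2 fold change of -2.84 (SE 0.46, adjusted p = 2.80e-04, edgeR). The ETO and LSD1 list without ganglion replicate 1 gave 5 lower, without Hdac2, and Polycomb repressive complex 2 gave 5 lower.

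Of the oncofetal RNA-binding and imprinted growth genes, 4 of 15 tested members were higher in the ganglia, 3 lower and 8 did not pass (median 0.13), shares near those over all genes tested. Dlk1, an imprinted Notch-related ligand of chromaffin and neuroblast cells, read 38.3 and 142 CPM in the ganglia and 983, 1650, 1450 and 1680 CPM in the tumors (log2 fold change -4.0, SE 0.97, adjusted p = 0.00429, edgeR). Lin28b, which blocks let-7 miRNAs, read 5.7 and 9.03 CPM against 25.1, 44.1, 46.1 and 44.9 CPM (log2 fold change -2.44, SE 0.62, adjusted p = 0.00564, edgeR). Igf2, the fetal growth factor, went the other way, at 27.9 and 23.2 CPM against 1.09, 1.69, 1.25 and 1.07 CPM (log2 fold change 4.32, SE 0.71, adjusted p = 3.10e-04, edgeR). Peg10, an imprinted gene derived from a retrotransposon (chr6:4747306-4760517), was chosen after its values were seen: it read 37.7 and 47.5 CPM in the ganglia, 252 CPM in tumor 1 and 9910 to 11600 CPM in the other 3 tumors (log2 fold change -7.55, SE 1.55, adjusted p = 0.00146, edgeR). Of the p53 pathway, 5 of 17 tested members were higher in the ganglia, 5 lower and 7 did not pass; Trp53 was lower (log2 fold change -1.82, SE 0.47, adjusted p = 0.00628, edgeR). When ganglion replicate 1 was left out, 0 oncofetal genes were lower, Dlk1, Lin28b and Trp53 losing their calls, and the p53 pathway gave 2 higher and 1 lower. Without replicate 2 it gave 3 and 3. The oncofetal median ranged from -0.12 (without ganglion replicate 2) to 0.68 (without tumor 1, with 6 higher) on leaving out 1 library, and was 0.84 with the term for the library set, so it had no settled sign.

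Metabolic lists also parted. Of the genes of polyamine, serine, one-carbon and nucleotide synthesis, 2 of 25 tested members were higher in the ganglia, 17 lower and 6 did not pass (median -1.1). Shmt1, the cytosolic serine hydroxymethyltransferase, read 2.11 and 5.48 CPM against 46.2, 96.6, 108 and 116 CPM (log2 fold change -4.6, SE 0.92, adjusted p = 0.00123, edgeR), while Phgdh, the first enzyme of serine synthesis, was higher in the ganglia (log2 fold change 2.4, SE 0.38, adjusted p = 2.55e-04, edgeR). For glucose uptake and glycolysis, 10 of 21 tested members were higher in the ganglia, 2 lower and 9 did not pass: Aldoc, the brain aldolase, was higher (log2 fold change 5.37, SE 0.67, adjusted p = 4.00e-05, edgeR) and Hk2, the hexokinase of growing tissue, lower (log2 fold change -2.57, SE 0.74, adjusted p = 0.0122, edgeR). For sterol synthesis, 11 of 20 tested members were higher in the ganglia, 0 lower and 9 did not pass, with Hmgcs1 at 491 and 482 CPM against 188, 116, 114 and 100 CPM (log2 fold change 1.91, SE 0.34, adjusted p = 5.19e-04, edgeR). The nuclear-encoded respiratory chain had few calls: 3 of 79 tested members were higher in the ganglia, 10 lower and 66 did not pass (median -0.1). Without ganglion replicate 1 the first list gave 11 lower, sterol synthesis 5 higher and the respiratory chain 0 higher and 3 lower, and without replicate 2 sterol synthesis gave 7 higher and the respiratory chain 1 higher and 6 lower. Glycolysis genes called lower numbered 1 without ganglion replicate 1 and 0 without replicate 2, and 0 with a term for the library set, Hk2 losing its call each time. That term gave 4 respiratory chain genes lower and a median of 0.16.

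Other lists gave few calls. Of the Hox genes, which set position along the body axis, 5 of 28 tested members were higher in the ganglia, 0 lower and 23 did not pass, and 1 passed without ganglion replicate 1 and 2 without replicate 2. Of the genes of MHC class I presentation, 4 of 16 tested members were higher in the ganglia, 0 lower and 12 did not pass, and 2 passed without ganglion replicate 1. Of the immediate early genes, 3 of 14 tested members were higher in the ganglia, 1 lower and 10 did not pass. These genes respond to handling as well as to activity. Fewer were called higher without ganglion replicate 2, where their median was 0.29 beside 0.68. The lower call was lost without ganglion replicate 1, and with a term for the library set 4 were higher and 0 lower.

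The 3 MYCN ganglia with wild-type Runx1t1 were set against the same 4 tumors, so the 2 comparisons share these libraries and their values are given side by side. Between wild-type ganglia and tumors 5755 genes passed (34.5%), 3415 higher (20.5%) and 2340 lower (14.0%), and without wild-type replicate 3 the number was 3549. For mitosis 5 of 28 members passed, all lower, with a median of -1.63 beside -3.83 in the het ganglia, and for S phase 6 of 28 (median -1.53 beside -3.35). For MYC targets 27 of 30 passed (median -1.23 beside -2.02), and for catecholamine genes 9 of 12 (median 1.83 beside 2.51). The wild-type ganglia spread widely: their mitosis sums were 2620, 233 and 1250 TPM, from near the tumors to between the 2 het ganglia.

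The test of the difference itself, het against wild-type MYCN ganglia, called 2 genes of 16665 (0.0120%; edgeR), with 2094 at an unadjusted p under 0.05 (12.6%). DESeq2 called 264. At the unadjusted level 16 of the 28 mitosis genes and 13 of the 30 MYC targets were among the 2094, and 0 of either list passed the adjustment. Without wild-type replicate 3, whose mitosis sum was 233 TPM, 320 genes passed with edgeR, and without wild-type replicate 1 or 4, or without either het ganglion, 0 passed (521 to 1631 at an unadjusted p under 0.05).

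**Figure D4:**
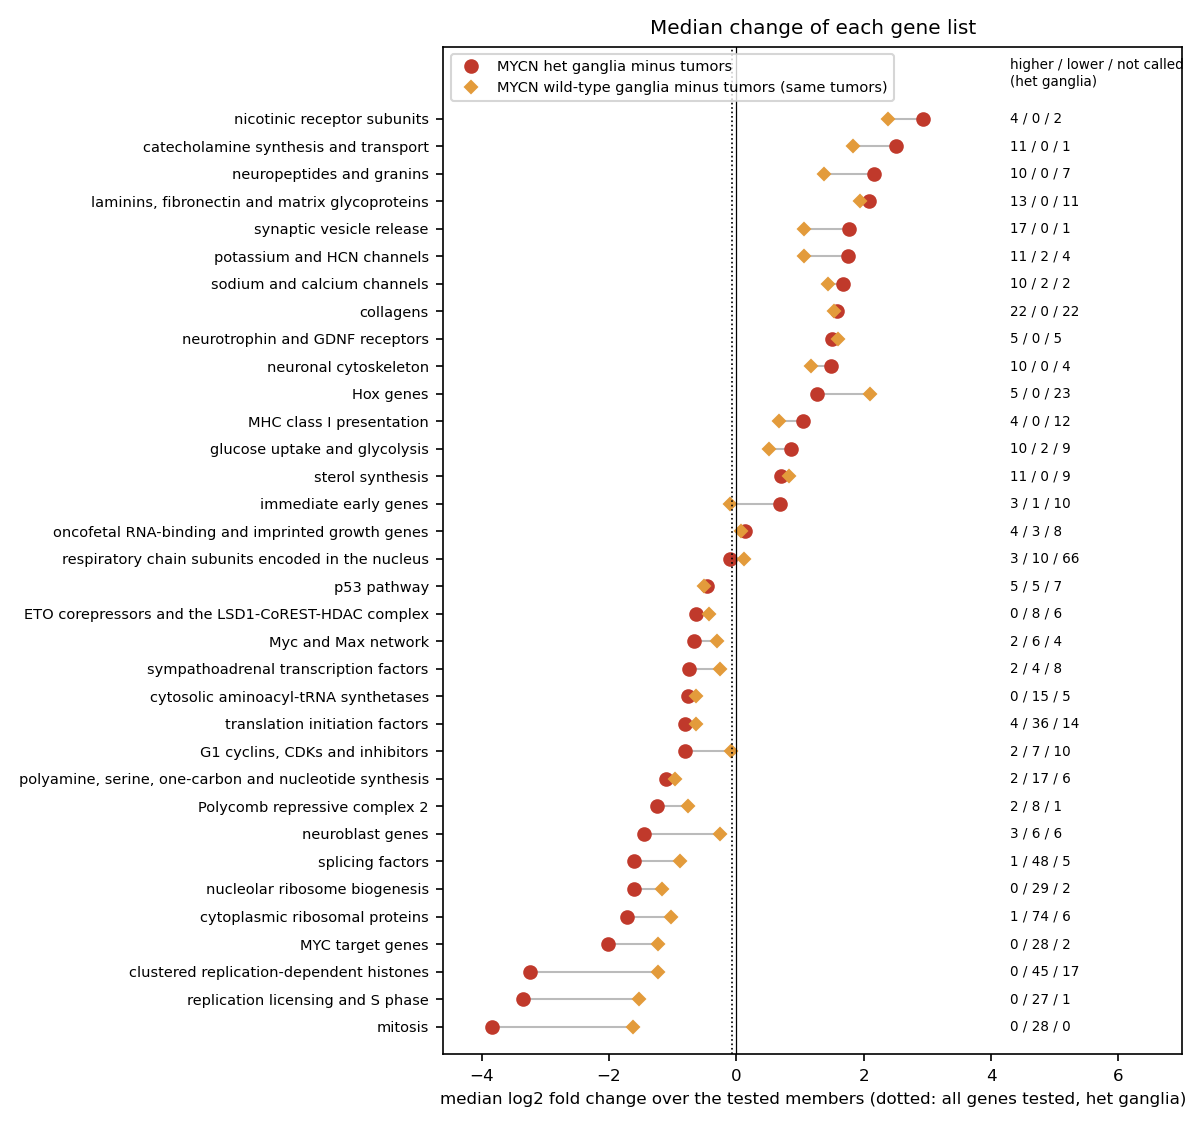
Median log2 fold change over the tested members of 34 gene lists for MYCN ganglia labelled het minus tumors (circles) and MYCN ganglia with wild-type Runx1t1 minus the same tumors (diamonds), with the number of members higher, lower and not called in the het comparison at the right. Mitosis (-3.83) and S phase (-3.35) lie at the bottom and nicotinic receptor subunits (2.93) at the top; the dotted line is the median over all genes tested, -0.07.

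Marker genes of the cell types a ganglion or tumor can hold were read in the same libraries. Of the sympathetic neuron markers, 9 of 12 tested members were higher in the ganglia, 0 lower and 3 did not pass, with sums of 24800 and 20100 TPM in the ganglia and 3670, 2650, 2500 and 2710 TPM in the tumors. The tumors held some of these markers at a high level and little of others: Hand2 read at least 490 CPM and Th at least 152 CPM in every tumor, and Prph at most 9.78 CPM. Of the satellite glia and Schwann cell markers, 12 of 14 tested members were higher in the ganglia, 0 lower and 2 did not pass (median 4.04), with sums of 2110 and 1520 TPM against 88.3, 114, 76.4 and 66.4 TPM. Sox10, the glial transcription factor, read 91.5 and 118 CPM against 4.15, 1.95, 0.999 and 3.06 CPM (log2 fold change 5.37, SE 0.54, adjusted p = 7.21e-06, edgeR).

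Fibroblast markers were also higher: 9 of 10 tested members were higher in the ganglia, 0 lower and 1 did not pass (median 3.01), with sums of 3290 and 2900 TPM against 217, 235, 177 and 526 TPM. Col1a1, of type I collagen, read 1320 and 1310 CPM against 156, 131, 134 and 394 CPM (log2 fold change 2.68, SE 0.61, adjusted p = 0.00282, edgeR), and Lum, lumican, gave a log2 fold change of 4.65 (SE 0.51, adjusted p = 1.50e-05, edgeR). Of the collagens, 22 of 44 tested members were higher in the ganglia, 0 lower and 22 did not pass and of the laminins and other matrix glycoproteins, 13 of 24 tested members were higher in the ganglia, 0 lower and 11 did not pass. Col28a1, a collagen of peripheral nerve, and Lama2, of the laminin around Schwann cells, gave a log2 fold change of 6.06 (SE 0.79, adjusted p = 5.85e-05, edgeR) and a log2 fold change of 6.28 (SE 0.47, adjusted p = 8.62e-07, edgeR). These glial and fibroblast sums were higher in the same ganglia as the neuronal lists above, and their part in the other differences was not tested. Among the libraries without Y-linked RNA, which include tumor 4 alone of the tumors, 2 fibroblast markers and 10 collagens were higher, with medians of 2.0 and 1.58 beside 3.01 and 1.58. Tumor 4 was the tumor with the highest fibroblast sum.

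Endothelial and pericyte markers gave 1 call each among 10 and 10, both higher. The endothelial call was lost without ganglion replicate 1, tumor 1 or tumor 4, and with a term for the library set. The remaining lists differed among themselves. Of the macrophage markers, 0 of 12 tested members were higher in the ganglia, 1 lower and 11 did not pass, with sums of 191 and 168 TPM against 386, 1200, 770 and 752 TPM. The 1 called was C1qc, a complement subunit (log2 fold change -2.55, SE 0.94, adjusted p = 0.0401, edgeR). On simulated counts DESeq2 recovered more changed genes than edgeR and made more false calls, and here it called 6 of the 12. With a term for the library set 5 were lower and 1 higher, and without transgene-free wild-type replicate 2 the lower ones numbered 5. Of the mesothelium markers, 0 of 8 tested members were higher in the ganglia, 4 lower and 4 did not pass, with sums of 11.3 and 13.4 TPM against 76.8, 55.4, 33 and 172 TPM. Of the adrenal cortex markers, 5 of 8 tested members were higher in the ganglia, 0 lower and 3 did not pass; Cyp11b1, the enzyme of the last step of corticosterone synthesis, read 5.28 and 1.23 CPM in the ganglia and was at or under the floor in the tumors, at least 33.2-fold higher. The adrenal sums were 114 and 52.7 TPM against 24.4, 36.9, 49.5 and 35.4 TPM. Without ganglion replicate 1 the adrenal calls numbered 1, the mesothelium calls 1 and the macrophage calls 0, and without replicate 2 they numbered 3, 1 and 0. Without tumor 4 the adrenal calls numbered 3 and the mesothelium calls 1, and without tumors 1 and 2 in turn the macrophage calls numbered 3 and 0. The term for the library set gave 2 mesothelium calls. Erythroid, liver, lymphocyte and adipocyte markers gave 0 calls with edgeR, and DESeq2 called 2, 1, 0 and 1 of them. Without transgene-free wild-type replicate 2, 1 lymphocyte marker was lower. The term for the library set gave 1 adipocyte marker higher, with a list median of 1.03 beside -1.16 in the main fit. Of the liver markers, 4 were lower without tumor 4 and 2 without tumor 2. Erythroid sums were 3270 and 793 TPM against 5170, 2820, 15000 and 3590 TPM. Of the chromaffin cell markers, 1 of 8 tested members were higher in the ganglia, 1 lower and 6 did not pass. Without tumor 1, 2 chromaffin markers were higher and 2 lower, and the lower call was lost without ganglion replicate 1. Of the thymocyte markers 1 of 5 was lower. Of the pancreas, kidney and skeletal muscle markers 1 of 4, 1 of 4 and 1 of 9 were higher. The sums of these 4 lists were under 25 TPM in each of the 6 libraries. Each of these calls was lost when 1 or other ganglion was left out. The pancreas median of 1.32 was -1.52 without ganglion replicate 1. With a term for the library set 0 kidney and 4 skeletal muscle markers were higher.

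**Figure D5:**
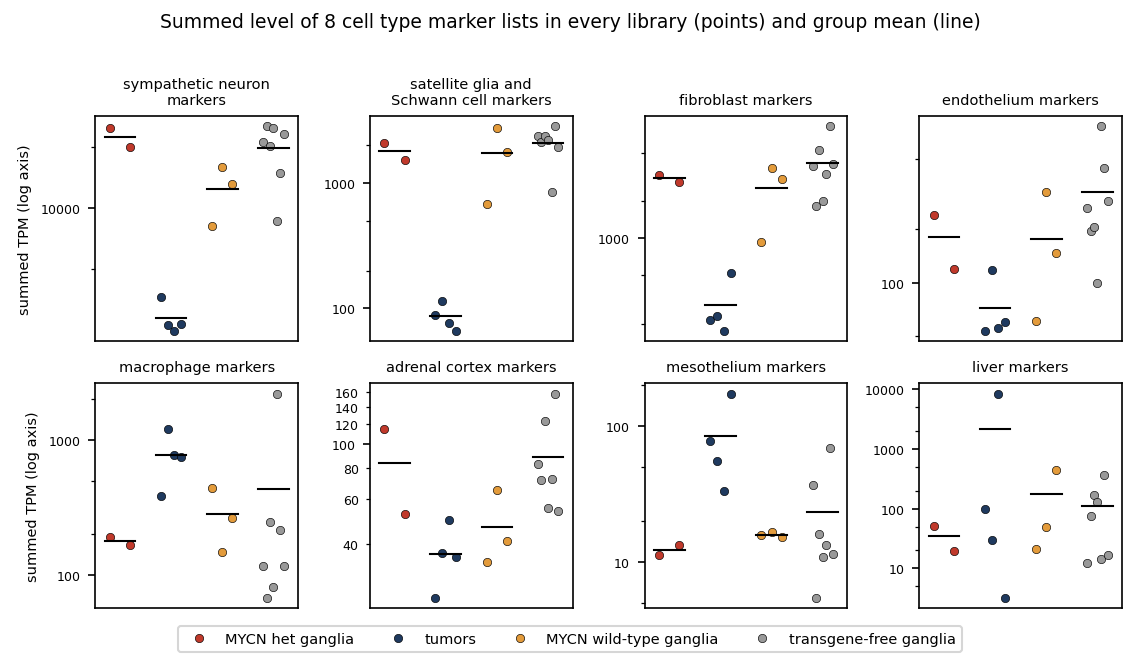
Summed TPM on a log axis of 8 lists of cell type markers in every library, with group means as lines. Neuron, glia and fibroblast markers are higher in both MYCN ganglia labelled het (red) than in any tumor (dark blue), and tumor replicate 3 stands alone in the liver panel at 8520 TPM.

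The genes lowest in the ganglia by size of change, under the same rule as the 10 highest, were led by single tumors more often. Serpina3k and H2-Q10, both known from liver, and Cml2 read 568, 109 and 75 CPM in tumor 3 and at most 6.25 CPM in the others, and both ganglia were at the floor. Liver markers moved with them: their sum was 8520 TPM in tumor 3, 3.19 to 99.3 TPM in the other tumors and 50.4 and 19.5 TPM in the ganglia. Tbr1, a T-box factor of the brain, read 71.1 CPM in tumor 4 and at most 0.876 CPM in the others. Without tumor 3 the calls of Cml2 and H2-Q10 were lost and Serpina3k still passed, and without tumor 4 the call of Tbr1 was lost. Each of the 4 lost its call when either ganglion was left out.

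The others of the 10 were shared by the tumors. Hapln4, a hyaluronan link protein of the nervous system, read 0.0704 and 0.154 CPM in the ganglia and 20.7, 43.3, 26.6 and 31.2 CPM in the tumors, at least 138-fold lower in the ganglia at the floor. Cd5l, a secreted protein of macrophages, read 0.845 and 0.0772 CPM against 15.1, 165, 138 and 68 CPM (log2 fold change -7.67, SE 2.06, adjusted p = 0.00792, edgeR). Rprl2 and Rnaset2a had no count in the ganglia, and read 41.4, 35.2, 29.3 and 35.7 CPM and 5.55, 11.9, 10.8 and 10.8 CPM in the tumors. Both have near-identical copies between which reads can be assigned, and their values follow the library sets. Rprl2 had no count in any of the 6 shallow ganglion libraries and read 14.9 to 44.5 CPM in the 6 deeper ones, the range in which the tumors lay. Rnaset2a was at 0 in 5 of those 6 shallow libraries and at 4.32 CPM in the sixth, and read 7.27 to 16.6 CPM in the deeper ones. With a term for the set neither passed (log2 fold changes -0.42 and -5.99, adjusted p = 1 and 0.183, edgeR), and Serpina3k and H2-Q10 lost their calls too. Without ganglion replicate 2 Cd5l lost its call, Rnaset2a lost it without either ganglion, and Rprl2 lost it whichever of the 6 libraries was left out. Dlx5 and Hist1h2bn, given above, complete the list.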

How the data were processed

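RNA from celiac ganglia and tumors was sequenced with a stranded total RNA kit, although the labels name polyA RNA, and the labels give neuroblastoma as the cell type of every sample. Per the study's methods, the authors aligned reads to mm10 with STAR, sorted them with SAMtools and obtained expected counts per gene with RSEM, which were deposited with TPM values. The strand setting and annotation are not given in the sources used here. The deposited expected counts were rounded here and tested with edgeR 4.0.16 in R 4.3.3 (filterByExpr by group, trimmed mean of M-values, quasi-likelihood test, all 16 libraries in 5 groups in 1 fit, Benjamini-Hochberg adjustment over 16665 genes, threshold 0.05). The deposited TPM values were summed over lists. Each list was described by counts and a median, with no set test.

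The floor was 3 counts per library, which covers counting error only. Values of 2 het ganglia against 4 tumors in an exact permutation test of a single gene could not reach a p below 0.0667, so only the fit across genes was used. Genes named were Runx1t1 and Mycn, the 10 largest called differences in each direction (mean TPM 5 or more, no overlap between groups), the first 4 and the most changed members of each list, and the 10 most abundant called genes in each direction. Peg10, and members named because few of their list stood apart in the test (such as Snrpn, C1qc, Ldha and Paics), were chosen after their values were seen, and some genes that the rule names are not reported here. The members and lists were chosen with earlier results of these data known. Alternatives were DESeq2 1.42.0, upper-quartile scaling, 2 other filters, a minimum fold change, a fit of the groups compared, a replicate block, thinning to the smallest library, a term for sex, a term for library set and removal of a transgene-free library that stood apart (both chosen after seeing the data), libraries without Y-linked RNA, removal of Rn45s and leaving out each library. Both tools were tested on simulated counts of 2 ganglia against 4 tumors. At a log2 fold change of 1, edgeR recovered 9% of the changed genes and DESeq2 30%. At a log2 fold change of 2 the shares were 50% and 73%. The simulation changed 100 of 16402 genes at each of these sizes, a far smaller share than the 45.5% called in the data. The shares recovered therefore do not measure recovery in this comparison, and genes that did not pass may still differ. False calls numbered 1 with edgeR and 33 with DESeq2.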

Additional observations from a re-analysis of the deposited data

Results flagged for a closer look

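In each group of 4 tumors, 105 sets of values were examined for a single library far from the rest, and 21 had one. For independent, normally distributed values chance gives about 1 in 20 such groups. The values here were not logged, and some sets share genes, such as Alb and the liver marker sum. That rate is therefore only a rough guide, and the flags are to be read with this in view.

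Tumor 1 stood apart most often. It was the highest tumor for Dbh (290 CPM, next 86.3), Ddc (416 CPM, next 208), Slc6a2 (63.2 CPM, next 9.81), Mycn (49.7 CPM, next 15.7) and Meis2 (396 CPM, next 61.9). It was the lowest for the sum of MYC targets (6860 TPM, next 9900), Nefh (194 CPM, next 277), Rcor2 (85.1 CPM, next 147), Lin28b (25.1 CPM, next 44.1), Rnaset2a (5.55 CPM, next 10.8) and Peg10 (252 CPM, next 9910). For Mycn the value of tumor 1 lay within the range of the het ganglia.

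Tumor 3 was far above the others for liver genes: the liver marker sum was 8520 TPM (next 99.3), Alb, serum albumin, was 2510 CPM (next 26.5), Serpina3k 568 CPM (next 6.25), Cml2 75 CPM (next 1.46) and H2-Q10 109 CPM (next 1.36). The liver markers moved with these calls, and their part in them was not tested.

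Tumor 4 was the highest for fibroblast markers (526 TPM, next 235), Col1a1 (394 CPM, next 156) and Tbr1 (71.1 CPM, next 0.876), and the lowest for neuropeptides and granins (1480 TPM, next 2240). Tumor 2 was the highest for C1qc (93.2 CPM, next 42.3).

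Het and wild-type MYCN ganglia differed in Plxnc1, a semaphorin receptor of the plexin family, with a log2 difference of 1.32 (adjusted p = 0.0448, edgeR), and in Tmed8, with a log2 difference of 1.17 (adjusted p = 0.0173, edgeR). Both were higher in the het ganglia. Both calls were lost without either het ganglion, without wild-type replicate 1 or 4, with a term for sex or the library set, with the replicate block, the minimum fold change or only the groups compared, and among libraries without Y-linked RNA. Tmed8 alone passed with no filter, thinning, upper-quartile scaling, without Rn45s or without transgene-free wild-type replicate 2.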

How the results depend on the processing

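The count of genes different between het ganglia and tumors, 7582, was 2920 (1948 higher, 972 lower) with a minimum log2 fold change of 1. Leaving out 1 library gave 4313 to 8275 genes, of which 1611 to 4150 were lower, and the lowest counts came without ganglion replicate 1. Libraries without Y-linked RNA gave 2332 lower genes. A replicate block gave 7576 genes. The het ganglia and tumors share replicate numbers 1 and 2 only as names, since same-numbered libraries deviated with correlations of -0.067 and -0.019. Between het and wild-type MYCN ganglia, DESeq2 called 264 genes, and 0 passed with the minimum fold change, without Y-linked libraries, with only the groups compared, with a term for sex or with a term for the library set (2865 at an unadjusted p under 0.05). The same comparison gave 1 gene with no filter on low counts, the replicate block, thinning, upper-quartile scaling or removal of Rn45s, and 0 to 320 on leaving out 1 library. Between wild-type ganglia and tumors the 5755 became 1451 with the minimum fold change, 1819 without Y-linked libraries and 3549 to 6755 on leaving out 1 library. With 100 bases before the start, CACGTG was in 8.71% of lower, 5.39% of higher and 6.87% of all genes. The median of kidney markers, 1.96, was -0.24 with no filter. In CPM in place of TPM the log2 ratio of summed levels turned from 0.67 to -0.15 for sympathoadrenal factors, from 0.43 to -0.21 for the respiratory chain, from 0.41 to -0.19 for skeletal muscle markers and from 0.64 to -0.46 for kidney markers. Alb turned to 3.69 among libraries without Y-linked RNA, which leave out tumor 3. Over 98 named genes, 1727 of 1852 alternatives kept direction and side of the threshold, 117 lost the call, 7 gained it and 1 turned. The cause of these shifts was not tested. With 2 ganglia at 12367970 to 14221947 counts, genes near the floor of 3 counts set only lower bounds on a fold.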
